A study of Mus musculus with 18 samples.

Results

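Injury and inflammation signals of skeletal muscle were followed through 10 mouse genes: the lectin Lgals3, the granule and secreted proteins Lcn2, S100a8, S100a9 and Srgn, the chemokines Cxcl12 and Ccl2, the macrophage proteins Cd68 and Cd14, and the matrix cytokine Spp1. The genes were chosen by name with their responses on these same arrays known, so their values at 24 h and 10 D are a description. The platform annotation gave 11 of the 45037 probesets to 9 of these genes, and 10 of the 11 passed the filter on dim probesets. Spp1 had no probeset in the annotation used and was not analysed here. The probeset of Ccl2 was too dim to be tested, and its levels are given without a call.

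Gracilis muscle, a superficial muscle of the inner thigh, came from male C57BL/6J mice of 3 to 5 weeks that were injected intraperitoneally once a day. C mice received 10 vehicle injections, 24 h mice received 9 vehicle injections followed by 1 injection of clenbuterol at 1 mg/kg, and 10 D mice received 10 injections of clenbuterol at 1 mg/kg. Clenbuterol is a beta-adrenergic agonist that enlarges skeletal muscle, and all mice were killed for muscle collection 24 h after their final dose. RNA of 3 mice was combined in each pool, and 3 pools of separate mice per group were each run on the MOE430A and the MOE430B chip, 18 arrays from 27 mice. Mice had been chosen for the arrays so that both clenbuterol groups stood as far as possible from C in weight gain and blood urea nitrogen, so the groups stand for animals selected by their response. Treatments were assigned at random to cages, several per treatment, and an effect of cage was not tested.

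Injured muscle releases chemokines and danger signals that draw neutrophils first and monocytes later, and the macrophages that follow clear dead fibres and then take part in rebuilding them. Galectin-3, the product of Lgals3, is a sugar-binding protein abundant in macrophages that is also made by other cells under stress. S100a8 and S100a9 form calprotectin, the major cytosolic protein of neutrophils, while lipocalin-2, the product of Lcn2, binds bacterial siderophores and is made by neutrophils and by many stressed tissues. Cxcl12 is a chemokine of stromal and endothelial cells that acts through Cxcr4, and Ccl2 attracts monocytes.

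The level of a probeset is the ratio of its signal to its array's median, so that a level of 1 is the brightness of the middle probeset. In 24 h muscle 4 of the 10 tested probesets rose against C, namely 1 each of Lgals3, S100a8, Srgn and Cxcl12, and 0 fell. Of all probesets tested 0.456% were called at 24 h, 0.329% higher and 0.127% lower, and because the genes were picked with this contrast known nothing is read from the larger share among them. The 154 calls behind this share changed with the pools kept. They became 24 without C pool 1, C pool 2 or 24 h pool 3, and 435 without 10 D pool 2. Leaving out a C or 24 h pool also leaves fewer pools in this contrast. In 10 D muscle 0 of the 10 were called against C, where 0% of all probesets were called. The unadjusted p at 10 D was under 0.05 for 3 of the 10 and for 1540 of all 33752 probesets tested. Between the treated groups 1 of the 10, a Cxcl12 probeset, was called lower at 10 D than at 24 h, where 0.0504% of all probesets were called and 0.0356% were lower, a total of 17 that became 1 without 24 h pool 3 and 75 without 10 D pool 2. The F test of the 3 groups called 3 of the 10, against 0.216% of all probesets. These were Lgals3, S100a8 and 1 Cxcl12 probeset, and S100a8 passed narrowly, at an adjusted p of 0.099. A call is an adjusted p under 0.1 in limma, adjusted over all probesets of both chips. The adjusted p-values place each probeset in the fit of the whole table and are no independent support for the choice of the genes. In RNA from whole muscle, fewer cells of a type and less RNA per cell cannot be told apart.

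**Figure D1:**
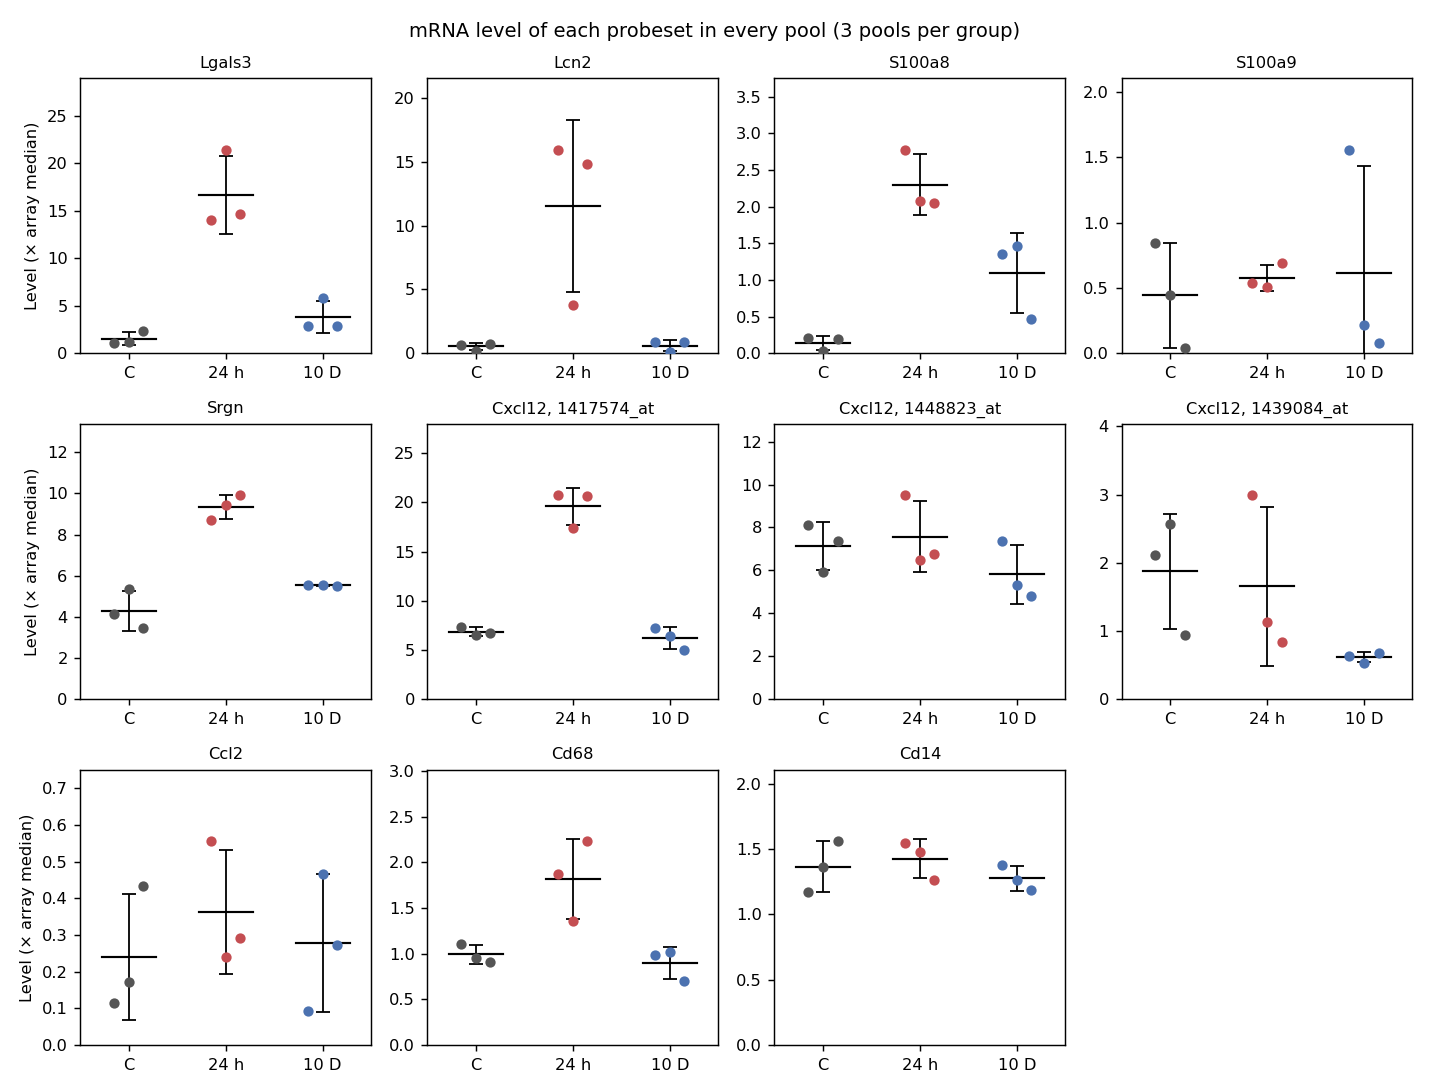
Level of each of the 11 probesets (signal over array median, linear axis from 0) in every pool of C, 24 h and 10 D muscle, with 1 point per pool and the group mean ± SD. Lgals3, Lcn2, S100a8, Srgn, 1 Cxcl12 probeset and Cd68 have all 3 pools at 24 h above all 3 C pools, while the other 5 probesets overlap between 24 h and C.

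The start regions are shown of the 6 genes with a probeset whose 24 h pools all lay above the C pools, and of S100a9, whose protein pairs with S100a8 and whose groups overlapped. RefSeq promoter sequences of the GRCm38.p6 assembly were found for 8 of the 10 genes. Each line holds the 250 bases before the annotated start of transcription, read 5′ to 3′ on the strand of the gene, and capitals mark matches to the motifs searched.
Lgals3 (chr14:47373610-47373859, plus strand): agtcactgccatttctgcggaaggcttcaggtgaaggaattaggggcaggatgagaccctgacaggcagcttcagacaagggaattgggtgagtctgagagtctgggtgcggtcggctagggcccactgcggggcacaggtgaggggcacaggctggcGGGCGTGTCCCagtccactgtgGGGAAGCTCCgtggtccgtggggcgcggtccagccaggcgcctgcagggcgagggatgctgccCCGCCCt
Lcn2 (chr2:32387740-32387989, minus strand): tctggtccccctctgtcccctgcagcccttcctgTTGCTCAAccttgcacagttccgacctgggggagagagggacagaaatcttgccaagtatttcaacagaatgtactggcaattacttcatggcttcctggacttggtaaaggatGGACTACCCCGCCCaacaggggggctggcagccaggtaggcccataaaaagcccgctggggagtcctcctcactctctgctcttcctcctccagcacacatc
S100a8 (chr3:90668821-90669070, plus strand): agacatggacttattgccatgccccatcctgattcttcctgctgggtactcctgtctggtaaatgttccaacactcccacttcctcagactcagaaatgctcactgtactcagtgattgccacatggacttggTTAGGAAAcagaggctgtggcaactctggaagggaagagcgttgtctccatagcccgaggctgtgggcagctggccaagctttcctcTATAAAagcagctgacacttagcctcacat
S100a9 (chr3:90695722-90695971, minus strand): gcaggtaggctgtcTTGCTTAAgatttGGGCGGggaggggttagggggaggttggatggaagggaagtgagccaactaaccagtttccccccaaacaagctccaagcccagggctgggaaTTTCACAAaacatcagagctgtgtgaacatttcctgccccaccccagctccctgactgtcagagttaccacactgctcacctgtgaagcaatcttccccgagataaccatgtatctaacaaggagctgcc
Srgn, first listed start (chr10:62507758-62508007, minus strand): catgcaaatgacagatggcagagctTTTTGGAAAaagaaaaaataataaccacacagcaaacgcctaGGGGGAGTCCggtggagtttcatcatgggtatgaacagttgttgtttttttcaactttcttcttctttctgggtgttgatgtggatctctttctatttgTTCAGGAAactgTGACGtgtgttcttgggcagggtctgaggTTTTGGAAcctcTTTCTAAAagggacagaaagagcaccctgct
Srgn, second listed start (chr10:62527446-62527695, minus strand): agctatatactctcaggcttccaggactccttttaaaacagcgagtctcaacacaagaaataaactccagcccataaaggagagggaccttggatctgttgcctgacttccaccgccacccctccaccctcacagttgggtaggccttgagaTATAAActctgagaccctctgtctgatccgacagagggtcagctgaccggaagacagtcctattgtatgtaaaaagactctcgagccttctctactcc
Cxcl12 (chr6:117168285-117168534, plus strand): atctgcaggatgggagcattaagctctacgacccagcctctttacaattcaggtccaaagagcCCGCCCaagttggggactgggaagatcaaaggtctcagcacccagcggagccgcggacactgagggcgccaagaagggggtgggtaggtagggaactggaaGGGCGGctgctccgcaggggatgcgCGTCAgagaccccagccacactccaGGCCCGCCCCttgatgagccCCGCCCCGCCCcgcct
Cd68 (chr11:69666171-69666420, minus strand): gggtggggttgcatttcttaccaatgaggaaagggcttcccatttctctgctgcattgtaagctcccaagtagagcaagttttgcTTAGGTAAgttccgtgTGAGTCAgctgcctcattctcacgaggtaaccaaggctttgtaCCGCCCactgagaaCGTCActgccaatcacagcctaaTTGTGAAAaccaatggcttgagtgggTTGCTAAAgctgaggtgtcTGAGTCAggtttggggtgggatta

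The motifs were searched on both strands as the TATA box (TATAAA), the Sp1 box (GGGCGG), the NF-kappaB pattern (GGG and CC with any 5 bases between), the AP-1 site (TGANTCA), the core of the cAMP response element (TGACG) and the C/EBP pattern (TTNNGNAA). S100a8 held a TATA box 30 to 25 bases before its start and Srgn one 98 to 93 bases before its second listed start, a motif in 12.4% of all 32851 promoters. The windows of Lgals3 and Cxcl12 were rich in G and C, at 66.0% and 64.4%, and that of S100a8 stood at 50.8%. Lgals3 had matches to the NF-kappaB pattern that began 92, 91 and 70 bases before its start, of which the first 2 overlap each other, and Lcn2, Cxcl12 and the first Srgn window had 1 each, a pattern present in 45.8% of all promoters. The NF-kappaB matches of Lcn2 and Cxcl12 overlapped Sp1 boxes. Matches to the C/EBP pattern (36.8% of all promoters) numbered 1 in Lcn2, 1 in S100a8, 2 in S100a9, 3 in Cd68 and 5 in the first Srgn window, 2 of which overlap each other. Cxcl12 held 5 Sp1 boxes (32.7% of all promoters) and 1 cAMP response element core (17.8%), 61 to 57 bases before its start, a core also present once in Cd68 and in the first Srgn window. Cd68 alone held the AP-1 site (6.75% of all promoters), 149 to 143 and 24 to 18 bases before its start. Lgals3, Lcn2, S100a9 and Cd68 each held 1 Sp1 box. A match describes letters in these windows and is no evidence that a factor bound there.

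Lgals3 (1426808_at) had the largest 24 h change of the called probesets relative to its error. Its levels were 1.12, 1.17 and 2.32 in the C pools, 13.99, 21.4 and 14.7 in the 24 h pools and 2.83, 5.79 and 2.86 in the 10 D pools. Every 24 h pool was far above every C pool, and the 10 D pools lay between, all above C and all below 24 h. The mean was 16.7 ± 4.10 at 24 h and 1.54 ± 0.680 in C (SD, n = 3 pools each), a rise of 11.3-fold in geometric means and a log2 change of 3.50 (SE 0.37, 95% interval 2.68 to 4.32, adjusted p = 0.0068, limma). At 10 D the mean was 3.83 ± 1.70 and the log2 change against C was 1.31 (95% interval 0.49 to 2.14, unadjusted p = 0.00502), which was not called (adjusted p = 1). The contrast of 10 D against 24 h had a log2 value of -2.19 (adjusted p = 0.14) and was not called either. On its arrays Lgals3 ranked at the 53.1st to 71.0th percentile of all probesets in C and at the 93.6th to 96.4th percentile at 24 h. The 24 h rise was called whichever of the 9 pools was left out, with adjusted p-values of 0.0027 to 0.062.

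Lcn2 (1427747_a_at) had a 24 h value as large as that of S100a8 but varied more between pools. Its levels were 0.666, 0.205 and 0.738 in the C pools, 15.95, 3.77 and 14.8 in the 24 h pools and 0.903, 0.0804 and 0.848 in the 10 D pools. All 24 h pools were above all C and 10 D pools, and in each group pool 2 was the lowest. The log2 change at 24 h was 4.37 (SE 0.94, 95% interval 2.29 to 6.45), a 20.7-fold difference of geometric means that was not called (adjusted p = 0.12). Means were 11.5 ± 6.73 at 24 h and 0.536 ± 0.289 in C (SD, n = 3 pools each). The C signals were dim, with a geometric mean of 20.5 beside a filter at 14.1, so the size of the change rests partly on them. The 24 h change passed at an adjusted p of 0.021 when 10 D pool 2, with a signal of 2.7, was left out, and missed the threshold whichever of the other 8 pools was left out (adjusted p = 0.11 to 0.43). Over 11 other settings of the processing it was called in 7, with adjusted p-values of 0.0035 to 0.37 and log2 values of 3.35 to 4.37. For 10 D against 24 h the log2 value was -4.61 (95% interval -6.69 to -2.53, adjusted p = 0.25), and it was called in 2 of the 11 settings. At 10 D the log2 value against C was -0.24 and its sign turned with the handling of low levels and with the pools used.

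S100a8 (1419394_s_at) was close to the dimmest probesets in C and reached the brighter part of the array at 24 h. Levels were 0.205, 0.0354 and 0.196 in the C pools, 2.78, 2.07 and 2.05 in the 24 h pools and 1.36, 1.47 and 0.468 in the 10 D pools. The order of the groups held for every pool, with C lowest, 10 D between and 24 h highest. The rise at 24 h was 20.3-fold in geometric means, or 4.34 on the log2 scale (SE 0.68, adjusted p = 0.044, limma). The geometric mean signal was 110 at 24 h and 4.96 in C, where the filter stood at 14.1, so the probeset passed the filter only through the treated groups and the size of its change rests on C signals near the bottom of the scale. With all levels under 0.25 set to 0.25, a setting chosen after these C levels were seen, the log2 value was 3.19, which shows how far its size depends on the dim C signals. At 10 D the log2 change against C was 3.12 (95% interval 1.61 to 4.63, unadjusted p = 0.000959) and was not called (adjusted p = 0.74). Leaving out C pool 1 or 3 (adjusted p = 0.12 and 0.11) or any of the 24 h pools (0.16, 0.13 and 0.16 for pools 1 to 3) ended the 24 h call. Over the 9 fits with a pool left out the 24 h log2 change was 3.51 to 4.77. The suffix of this probeset name marks probes that can match more than 1 gene family member, and the annotation lists S100a8 alone.

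S100a9 (1448756_at), the partner of S100a8 in calprotectin, showed no separation between groups. Its levels were 0.844, 0.445 and 0.0397 in the C pools, 0.538, 0.504 and 0.689 in the 24 h pools and 1.56, 0.217 and 0.0751 in the 10 D pools. The 24 h pools lay close together inside the range of the C pools, and both C and 10 D spread widely. The log2 change at 24 h was 1.22 (SE 1.23, 95% interval -1.52 to 3.95, adjusted p = 0.85), so a rise as large as that of Srgn and a fall of that size both lie within the error. Its geometric mean signal in C, 10.9, was also under the filter. The level of S100a8 divided by that of S100a9 was 5.16, 4.11 and 2.98 at 24 h and 0.242, 0.0796 and 4.94 in C. The ratio in C pool 3 reached that of the 24 h pools because S100a9 had its lowest level there. Only shifts of this ratio between pools can be read, since probesets differ in brightness at equal amounts of RNA.

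Srgn (1417426_at), serglycin, is the core protein that packs proteases and mediators into the granules of leukocytes and is secreted by other cells. Levels were 4.12, 5.35 and 3.44 in the C pools, 8.73, 9.43 and 9.90 in the 24 h pools and 5.54, 5.56 and 5.51 in the 10 D pools. The 24 h pools stood above all others, and the 10 D pools were nearly equal to each other and just above the highest C pool. The mean was 9.35 ± 0.592 at 24 h and 4.30 ± 0.970 in C (SD, n = 3 pools each), a rise of 1.14 on the log2 scale (SE 0.21, adjusted p = 0.078, limma). At 10 D the log2 change against C was 0.39 (95% interval -0.08 to 0.86, adjusted p = 1). The 24 h call held with 10 D pool 1 or 2 left out (adjusted p = 0.080 and 0.051). Leaving out any other single pool, each C and 24 h pool and 10 D pool 3, ended it (0.15 to 0.32). The log2 change at 24 h was 0.99 to 1.31 over these fits.

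**Figure D2:**
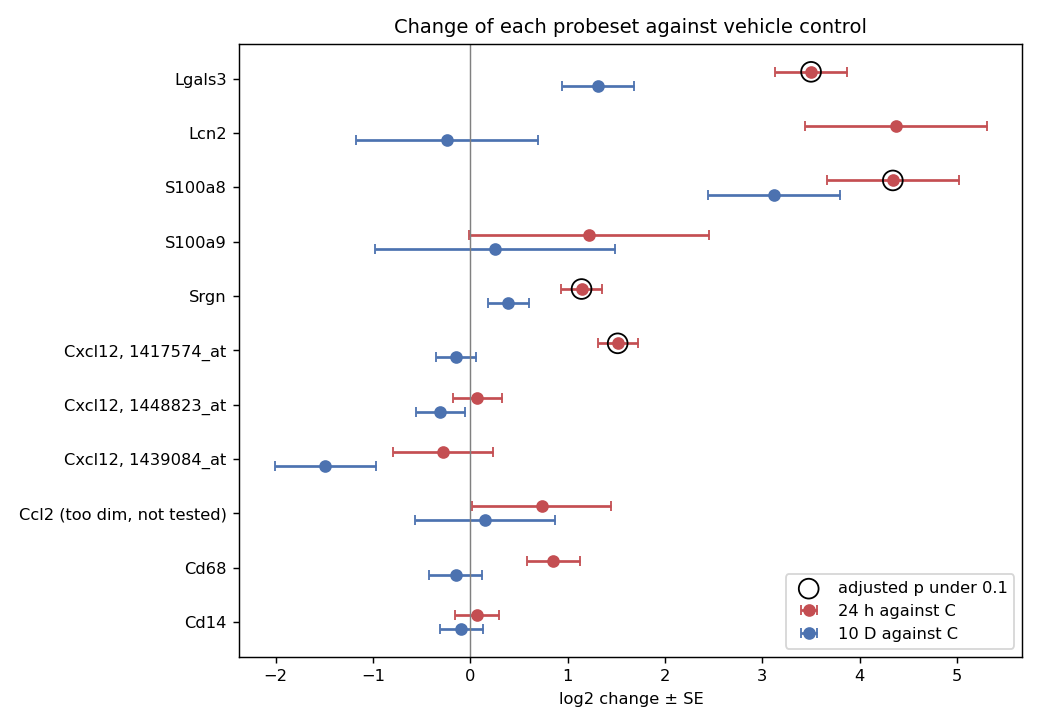
Log2 change of each tested probeset at 24 h against C and at 10 D against C, with ± 1 SE from the limma fit of 3 pools per group and a ring around each called change. Ccl2 is drawn from the fit with no filter. The 4 called changes are all at 24 h, from 1.14 for Srgn to 4.34 for S100a8, and every 10 D change is uncalled.

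Cxcl12 was measured by 3 probesets, which disagreed. The first, 1417574_at, had levels of 7.34, 6.54 and 6.68 in the C pools, 20.7, 17.4 and 20.7 in the 24 h pools and 7.22, 6.45 and 5.03 in the 10 D pools. Every 24 h pool was far above every C and 10 D pool, and the 10 D pools were not separated from C. The 24 h rise was 2.86-fold, or 1.51 on the log2 scale (SE 0.20, 95% interval 1.06 to 1.97, adjusted p = 0.023, limma). The level at 10 D was lower than at 24 h with a log2 value of -1.66 (adjusted p = 0.037), the sole direct difference between treated groups called among these genes. Leaving out any C pool ended the call of the rise (adjusted p = 0.13, 0.16 and 0.12 for pools 1 to 3), as did leaving out 24 h pool 3 (0.14). Leaving out any C pool also ended the call of the direct difference (0.13, 0.11 and 0.13). So did leaving out 24 h pool 1 or 3 (0.20 and 0.23) or 10 D pool 3 (0.15). Over the 9 fits the log2 value was 1.47 to 1.60 for the rise and -1.78 to -1.52 for the direct difference.

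The second Cxcl12 probeset, 1448823_at, had levels of 8.14, 5.95 and 7.35 in the C pools, 9.49, 6.47 and 6.75 in the 24 h pools and 7.38, 5.31 and 4.79 in the 10 D pools. The groups overlapped, with a log2 change at 24 h of 0.07 (SE 0.25, 95% interval -0.48 to 0.63, adjusted p = 0.96). The interval of this probeset ends below the start of the interval of the first. The level of the first divided by that of the second was 2.18, 2.69 and 3.06 at 24 h and 0.902, 1.10 and 0.908 in C, a log2 difference of 1.44, and it was 0.979, 1.21 and 1.05 at 10 D. The ratio thus set the 24 h pools apart within each array, where scaling between arrays plays no part. The third probeset, 1439084_at on the MOE430B chip, was dimmer and had levels of 2.11, 2.57 and 0.939 in the C pools, 2.99, 1.14 and 0.837 in the 24 h pools and 0.636, 0.530 and 0.683 in the 10 D pools. Here the 24 h pools overlapped C while all 10 D pools were lower than all C pools, with log2 changes of -0.28 (adjusted p = 0.92) and -1.49 (95% interval -2.62 to -0.36, unadjusted p = 0.0144, adjusted p = 1). Cxcl12 is spliced to several transcripts, and which of them each probeset reads was not examined, since neither probe sequences nor transcript positions were used here.

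**Figure D3:**
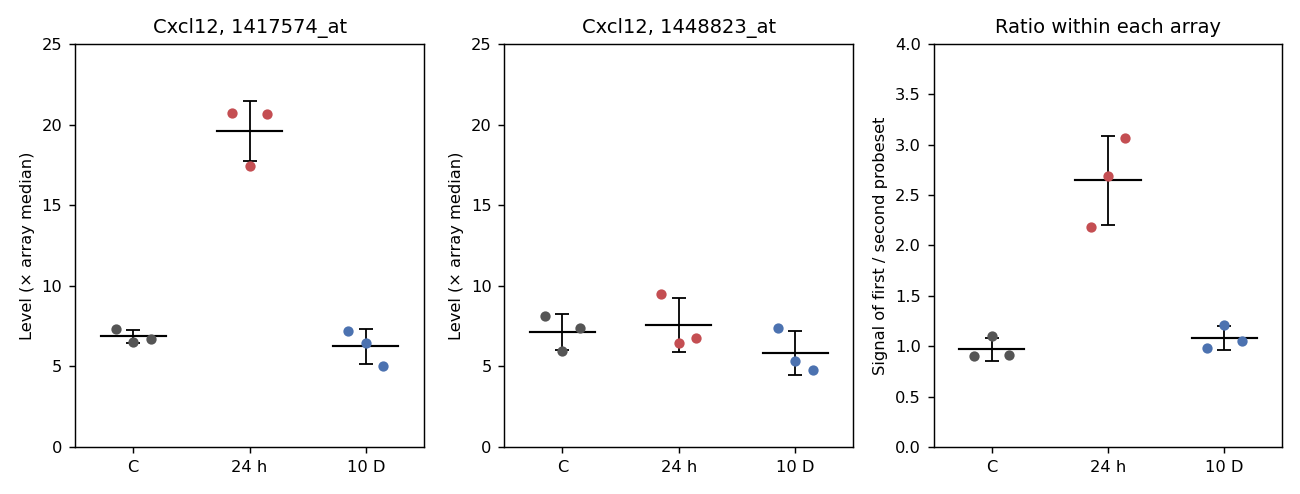
Levels of the first and second Cxcl12 probesets (signal over array median) by pool with the group mean ± SD (n = 3 pools), and the ratio of the first to the second probeset within each MOE430A array. The ratio is 2.18 to 3.06 in the 24 h pools and 0.902 to 1.10 in the C pools, while the second probeset overlaps between all groups.

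Ccl2 (1420380_at), the monocyte chemokine, stayed dim in every group. Its levels were 0.114, 0.172 and 0.435 in the C pools, 0.556, 0.241 and 0.292 in the 24 h pools and 0.0916, 0.467 and 0.273 in the 10 D pools, and the groups overlapped. No difference was detectable at these signals, and with no filter the log2 value at 24 h was 0.73 (adjusted p = 0.87).

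Cd68 (1449164_at), a lysosomal glycoprotein of macrophages, was higher in every 24 h pool than in every C pool but was not called. Levels were 1.10, 0.955 and 0.911 in the C pools, 1.87, 1.36 and 2.23 in the 24 h pools and 0.981, 1.02 and 0.700 in the 10 D pools. The log2 change at 24 h was 0.85 (SE 0.27, 95% interval 0.25 to 1.46, unadjusted p = 0.0104, adjusted p = 0.36). At 10 D every pool was below every 24 h pool, with a log2 value of -1.004 (adjusted p = 0.53). Cd14 (1417268_at), the co-receptor for bacterial lipopolysaccharide on monocytes and macrophages, overlapped in all groups. Its levels were 1.17, 1.36 and 1.56 in the C pools, 1.55, 1.48 and 1.26 in the 24 h pools and 1.38, 1.26 and 1.19 in the 10 D pools. The log2 change of Cd14 at 24 h was 0.07 with a 95% interval of -0.42 to 0.56, and at 10 D it was -0.09 with an interval of -0.58 to 0.40.

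Across the 10 tested probesets the median log2 change at 24 h against C was 1.18, beside 0.02 over all probesets, and at 10 D against C it was -0.12, beside 0.01. S100a8 and S100a9 are part of these medians and of the counts that follow only because their treated pools lifted them over the filter. Of the 10 probesets 6 had all 3 pools at 24 h above all C pools, which 9.60% of all probesets did, and 3 had all 10 D pools above C, against 5.76%. Those 3 were Lgals3, S100a8 and Srgn, whose 10 D levels were also all below their 24 h levels. The third Cxcl12 probeset was the 1 of 10 with all 10 D pools below C, against 4.52%. Of the 10, 7 had every 10 D pool below every 24 h pool, which 5.10% of all probesets did. The comparisons share pools, so these counts are not independent of each other. The genes were picked with these responses known, so nothing is read from the larger shares among them.

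**Figure D4:**
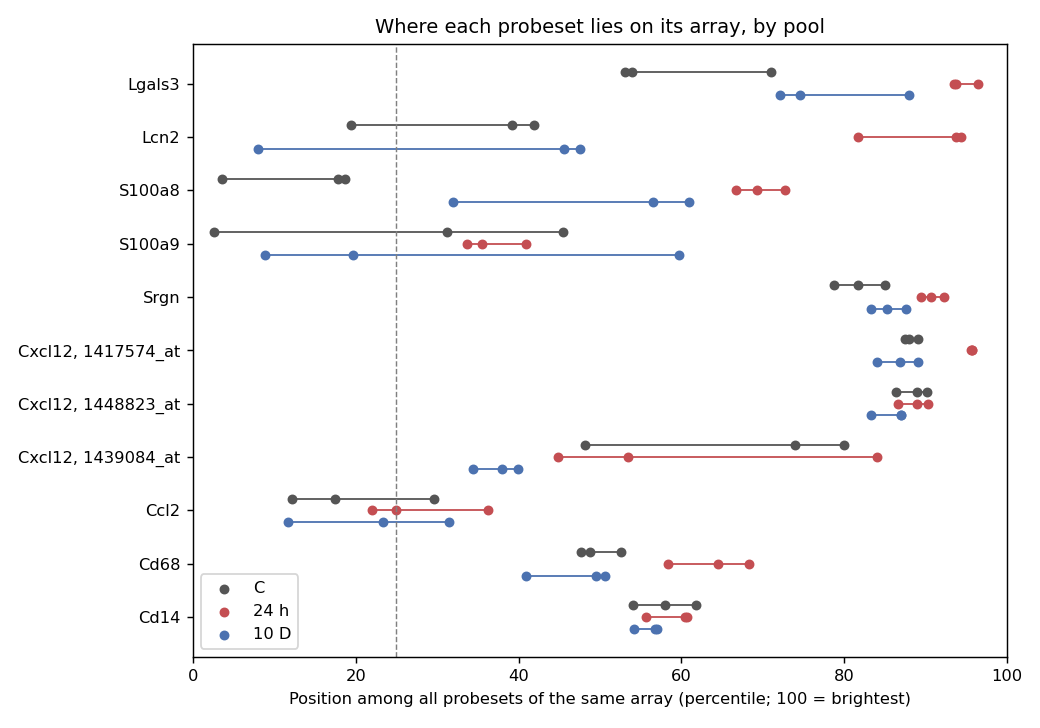
Rank of each probeset among all probesets of its array (percentile, 100 the brightest) in every pool of C, 24 h and 10 D muscle, with a dashed line at the 25th percentile. Lgals3 lies between the 53.1st and 71.0th percentile in C and between the 93.6th and 96.4th at 24 h, and S100a8 between the 3.58th and 18.7th in C and between the 66.7th and 72.8th at 24 h.

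Related genes were taken from 12 lists: leukocyte markers, partners of the genes above, other members of their families, cytokines, acute phase and lysosomal genes and genes of regenerating muscle. Of 214 genes listed 159 were tested, each by its brightest probeset, and at 24 h against C 1 rose and 0 fell. Over all genes 0.487% were called higher and 0.184% lower. The median log2 change of the listed genes was -0.05, beside 0.04 over all 15184 genes, and at 10 D against C and at 10 D against 24 h 0 were called in either direction, where 0.0198% of all genes were higher and 0.0593% lower at 10 D than at 24 h. The unadjusted p was under 0.05 for 13 listed genes at 24 h against C (8.18%, beside 9.55% of all genes), for 9 at 10 D against C (5.66%, beside 4.45%) and for 16 at 10 D against 24 h (10.1%, beside 6.30%).

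The 1 listed gene that rose was Myog, myogenin, the transcription factor of muscle differentiation. Its level was 8.58 ± 1.85 at 24 h and 2.07 ± 0.460 in C, and 2.29 ± 0.871 at 10 D (SD, n = 3 pools each), with a log2 change at 24 h of 2.06 (SE 0.34, adjusted p = 0.053, limma). Leaving out any C pool (adjusted p = 0.22, 0.25 and 0.16 for pools 1 to 3), any 24 h pool (0.17, 0.15 and 0.14) or 10 D pool 3 (0.11) ended this call, as did a fit with no intensity trend (0.13) and the unmoderated linear model (0.19). With 1 pool left out the log2 change of Myog at 24 h was 1.85 to 2.24. Other genes of regenerating muscle did not pass. Myf5 had a log2 value of 1.04 (adjusted p = 0.60), and the list of 12 tested genes had a median of 0.00.

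Markers of the leukocytes that carry several of these proteins were measured on the same arrays. Of 23 tested macrophage and monocyte markers 0 were called at 24 h and 9 had a value above 0, with a median log2 change of -0.06. The level summed over the 25 markers with a probeset was 38.3 to 58.9 in the 24 h pools and 44.1 to 52.2 in the C pools, so the groups overlapped. Adgre1 and Csf1r, which define macrophages and were added to the named genes after their values were seen, had log2 values of 0.27 and 0.09 (adjusted p = 0.83 and 0.96). The smallest p of the list belonged to Ly86, with a log2 value of -2.13 (adjusted p = 0.26), lower in every 24 h pool. Whether macrophages had a part in the levels of Lgals3 and Cd68 was not tested.

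Of 20 neutrophil markers 16 had a probeset and 10 were tested. Of these 10, 0 were called at 24 h and 6 had a value above 0, with a median log2 change of 0.08. The 16 with a probeset summed to 10.7 to 20.7 at 24 h and 12.9 to 13.9 in C. Mpo, the peroxidase of neutrophil granules, had a log2 value of 0.33 (adjusted p = 0.86), and Elane had -0.54 (adjusted p = 0.74). Ly6g and Cxcr2 were not among the tested genes. The 9 mast cell markers, of which 6 were tested, summed to 4.72 to 7.71 at 24 h and 5.07 to 5.77 in C, with 0 called. Whether neutrophils or mast cells had a part in the levels of S100a8, Lcn2 and Srgn was not tested. No gene of these lists had a signal of 0 on any array.

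Lymphocyte and pan-leukocyte markers had lower values at 24 h, with a median log2 change of -0.98 over 10 tested genes, of which 1 was above 0 and 0 were called. The 15 with a probeset summed to 9.18 to 12.3 at 24 h and 16.3 to 17.5 in C, without overlap, and 15.4 to 19.5 at 10 D. Ms4a1, the B cell antigen CD20, had a log2 value of -1.18 (adjusted p = 0.11), and Ptprc, the CD45 antigen of all leukocytes, -0.99 (adjusted p = 0.49). At 24 h most of these uncalled values were below 0. Cd8a was the 1 above 0, at 0.18, and Cd53 had -0.0042. Some of the genes were dim, with mean signals over all pools of 19.2 for Nkg7 and 19.3 for Cd3g, beside the MOE430A filter of 14.1. At 10 D the summed level overlapped that of C. Whether the number of leukocytes had a part in these levels, or in those of S100a8, Srgn and Cd68, was not tested.

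Receptors and partners of the proteins were not called, 0 of 18 tested, and their median log2 change at 24 h was -0.07. Cxcr4, the receptor of Cxcl12, was dim, at 0.369 ± 0.114 at 24 h and 0.668 ± 0.226 in C (SD, n = 3 pools each), with a log2 value of -0.84 (adjusted p = 0.64). Cd44, a cell surface receptor for hyaluronan and for the Spp1 protein, had a log2 value of 0.40 (adjusted p = 0.65) and all 24 h pools above C. Itgav, the integrin alpha-V chain, had 0.45 (adjusted p = 0.63), also with all 24 h pools above C.

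Other members of the same families did not pass either. Of 7 other galectins tested 3 had a value above 0 at 24 h, with a median log2 change of -0.01. Lgals1, the most studied galectin of muscle, had a level of 75.8 ± 10.7 at 24 h and 55.9 ± 3.37 in C (SD, n = 3 pools each). Every 24 h pool of Lgals1 was above C, with a log2 value of 0.43 (adjusted p = 0.63). Of 9 other S100 genes 7 had a value above 0, with a median of 0.29. S100a6, a calcium-binding protein of dividing cells, had a log2 value of 0.79 (adjusted p = 0.39), with a level of 18.3 ± 4.84 at 24 h and 10.3 ± 1.27 in C. S100a5 had a log2 value of -0.59, with all 24 h pools below C. Of 20 other chemokines 0 were called and 6 had a value above 0, with a median of -0.17. Of 21 cytokines and receptors 0 were called and 12 had a value above 0, with a median of 0.055. Il6st, the shared signal chain of the interleukin-6 family, had the smallest p, with a log2 value of 0.73 (adjusted p = 0.20). The level of Il6st was 16.5 ± 0.906 at 24 h and 9.92 ± 0.721 in C. Lifr had a log2 value of -0.80, with all 24 h pools below C. Of 9 acute phase and complement genes, the class to which the Lcn2 product is often counted, 1 had a value above 0 at 24 h and 0 were called. Of 14 lysosome and phagocytosis genes 0 were called and 8 had a value above 0, with a median of 0.08. Grn, progranulin, had a log2 value of 0.85 (adjusted p = 0.39) with all 24 h pools above C. Lamp1 had a log2 value of -0.44, with all 24 h pools below C.

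**Figure D5:**
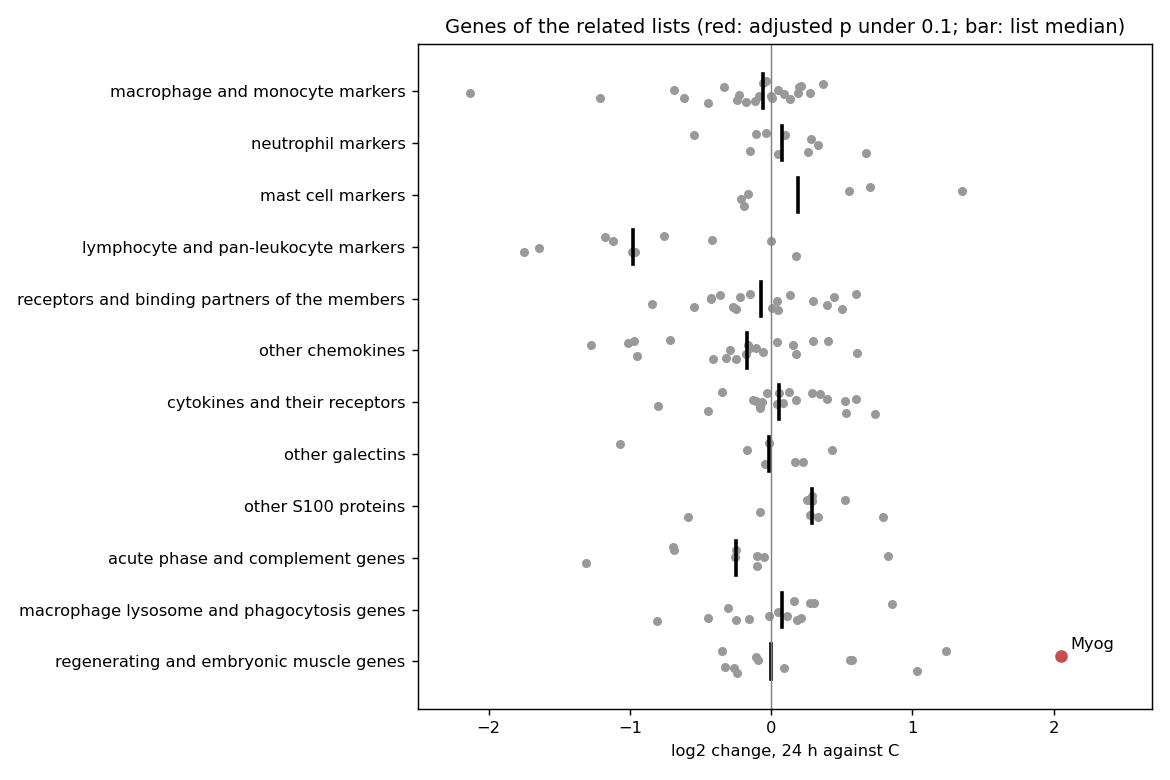
Log2 change at 24 h against C of every tested gene of the 12 related lists, with 1 point per gene, the median of each list as a bar and the called gene marked. Myog, at 2.06, is the 1 called gene of 159, and the lymphocyte list has its median at -0.98.

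Markers of muscle fibres, which should dominate the samples, summed to 2398 to 3254 times the array median at 24 h, 2070 to 3564 at 10 D and 2796 to 4496 in C, with 0 of 14 called at 24 h. All 14 had a log2 value under 0 at 24 h (median -0.25) and at 10 D (median -0.27), against C, and whether this had a part in the levels of the other genes was not tested. Keratinocyte markers, which belong to skin, summed to 4.43 to 7.46 at 24 h and 6.05 to 28.8 in C, with 0 of 7 called. Fat cell markers had 1 of 6 values above 0 at 24 h (median -0.50) and 0 of 6 at 10 D (median -0.81), with 0 called. Markers of fibroblasts, endothelium and red blood cells also had 0 called genes at 24 h. Array medians, which set the scale, ranged from 30.8 to 88.4 on MOE430A and from 13.2 to 37.1 on MOE430B, and Spearman correlations between arrays of a chip were 0.883 to 0.958 and 0.824 to 0.894. Depth in reads has no counterpart here, and 3 arrays per group and chip limit the precision.

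For 3 of the genes the most similar profiles were sought among 15183 other genes, by Pearson correlation of log2 levels over the 9 pools, which fall into 3 groups. Closest to Lgals3 were Tshz3, Eprs, Gnl3, Htra1 and Heatr1, each with r = 0.98. Htra1, a secreted serine protease, changed by 2.80 at 24 h and 1.06 at 10 D on the log2 scale, and Eprs, a tRNA synthetase, by 1.18 and 0.43. Closest to the first Cxcl12 probeset were Nmd3 (r = 0.98), Col4a1, Eif4h, Emd and Fdx1 (r = 0.97 each). Among them Emd, the nuclear envelope protein emerin, changed by 2.497 and 0.36, and Col4a1, a basement membrane collagen, 1.04 and -0.09. Closest to S100a8 were Emc3 (r = 0.96), Wac, Ints3 and Acvr2a (r = 0.94 each) and Prnp (r = 0.93), with log2 changes at 24 h of 0.51 to 1.34. None of these 15 genes belonged to the 12 related lists. Those lists held only 159 of the 15184 genes tested, so nothing is read from this.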

How the data were processed

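Gracilis muscle RNA of 9 pools (3 each in C, 24 h and 10 D) was measured on MOE430A and MOE430B chips. The authors made 1 signal intensity per probeset with MAS 5.0 and deposited these linear intensities unscaled. MAS settings are not given in the sources used here. Each intensity was divided by its array median, a signal of 0 (18 values) was set to 0.05, and log2 was taken. Probesets with a mean log2 signal at or above their chip's 25th percentile (14.1 in signal units for MOE430A and 6.97 for MOE430B) were tested, 33752 of 45037, since 100 probesets present on both chips were counted once. The platform annotation gave 1 gene symbol to 34945 probesets, several to 932 and none to 9160. One linear model of the 3 groups per chip (limma 3.58.1 in R 4.3.3, eBayes with an intensity trend, 6 residual degrees of freedom) gave two-sided moderated tests. P-values were adjusted over both chips together by Benjamini-Hochberg and called under 0.1, the false discovery rate of the study's methods. An exact permutation of 3 pools against 3 could not go below p = 0.1. Pools held separate mice, so p-values measure the spread between pools.

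The genes and the related lists were chosen with earlier results of these data known. By the rule for names, the text gives every probeset of the 10 genes, up to 4 genes of each list with the smallest p at 24 h, and the 5 genes most correlated with each of Lgals3, Cxcl12 and S100a8. Lists were counted by the brightest tested probeset of a gene. The fit was tested on simulated arrays with 50 probesets changed at each size among 33752. At 24 h against C, 0 were recovered at a log2 change of 0.5, 0 at 1, 8 at 2 and 40 at 4, with 8 false among 56 calls. Alternatives covered scaling, filter, handling of low values, variance model, samples in the fit, adjustment, pool number as a block and each pool left out.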

Additional observations from a re-analysis of the deposited data

Results flagged for a closer look

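The first Cxcl12 probeset, 1417574_at, met the condition for a closer look because a direct test separated the treated groups. Its level was 6.23 ± 1.11 at 10 D and 19.6 ± 1.88 at 24 h (SD, n = 3 pools each), a log2 value of -1.66 for 10 D against 24 h (adjusted p = 0.037, limma), with all 3 pools at 10 D below all 3 at 24 h. The second Cxcl12 probeset on the same chip had a log2 value of -0.38 for the same contrast (adjusted p = 0.99), and the third had -1.21 (adjusted p = 0.89).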

How the results depend on the processing

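With 3 pools per group the simulated data showed that changes under a log2 size of 2 were seldom called, so an uncalled probeset is not shown to be unchanged. S100a8, S100a9 and Ccl2 had C signals under the filter, near the bottom of the scale. Lcn2 was also dim in C, with a geometric mean signal of 20.5 beside the MOE430A filter of 14.1. The call of Lgals3 at 24 h held in all 11 other settings (adjusted p = 0.0039 to 0.081) and that of Cxcl12 1417574_at in all 11 (0.017 to 0.070). S100a8 at 24 h was called in 9 of the 10 settings that tested it, lost in the unmoderated linear model (adjusted p = 0.20) and not tested with the filter at the 50th percentile. Srgn was called in 8 of 11 and lost with quantile normalization (adjusted p = 0.12), with no intensity trend (0.16) and in the unmoderated model (0.11). Lcn2 was called in 7 of 11 settings, with adjusted p-values from 0.0035 to 0.37 over all of them. The direct difference of Cxcl12 was lost with no intensity trend (adjusted p = 0.11) and with only the groups compared (0.37).

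The number of probesets called was 3 in the F test and 1 in the unmoderated model, and at 24 h against C it was 4 and 2 in that model. For 10 D against 24 h it was 1, and it became 3 on log2(level + 0.5), 0 with no intensity trend and 0 with only the groups compared. The 10 D contrast with C gave 0 calls among these probesets in every setting and every fit with a pool left out. Listed genes called at 24 h were 1, and 2 with quantile normalization, the filter at the 50th percentile, adjustment within each chip (Myog and Ms4a1) or the unmoderated model (Il6st and Ms4a1, with Myog lost at an adjusted p of 0.19), and 0 with no intensity trend. Over the 9 fits with 1 pool left out the counts ranged from 0 to 4 for the F test, 1 to 5 for 24 h against C, 0 to 2 for 10 D against 24 h and 0 to 2 for listed genes. Of these fits only the one without 10 D pool 2 kept the F test call of S100a8. That call was also lost with no filter, with no intensity trend and in the unmoderated model. Over all probesets the F test called 73, with 7 left without 24 h pool 3 and 242 without 10 D pool 2. The cause was not tested.

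Mice were put into pools at random within a treatment, and pool numbers were treated as names. Same-numbered pools of 10 D and 24 h deviated together on MOE430A (r = 0.39, 0.56 and 0.10 for pools 1 to 3) and less on MOE430B (0.11, 0.16 and 0.01), while pairs with C had r of -0.07 to 0.05. Not every pair passed 0.1 on both chips, so this is a hint from the data and not a pairing of the design. With the pool number as a replicate block, 2 probesets were called for 10 D against 24 h, 5 at 24 h against C, 3 in the F test, 0 at 10 D against C and 1 listed gene, the additions being Lcn2 at 24 h (adjusted p = 0.0035) and at 10 D against 24 h (0.0044). In the F test the block called Lcn2 and lost S100a8.

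Signs turned only in uncalled changes. Lcn2 at 10 D against C had 0.0363 on log2(level + 0.5), 0.21 with levels floored at 0.25, a setting added after the data were seen, and -0.83 to 0.91 with pools left out. With pools left out the ranges were -0.0363 to 0.17 for Cd14 at 24 h, -0.20 to 0.0101 for Cd14 at 10 D, -0.25 to 0.0204 for Cd68 at 10 D, -0.10 to 0.18 for Cxcl12 1448823_at at 24 h and -0.82 to 0.10 for Cxcl12 1439084_at at 24 h. S100a9, tested in 8 of the 9 fits, ranged from -0.10 to 2.10 at 24 h, from -1.06 to 1.24 at 10 D and from -1.05 to 0.0253 for 10 D against 24 h.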

Other observations

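Markers of other cell types in the muscle gave further values at 24 h, none of them called. Of 11 endothelial markers 8 had a value above 0 at 24 h against C (median 0.14) and 3 at 10 D (median -0.09). Emcn and Eng, membrane proteins of endothelial cells, had log2 values of 0.84 (adjusted p = 0.26) and 0.75 (adjusted p = 0.41) at 24 h, with all 24 h pools above all C pools, while Cldn5, of tight junctions, had -0.28 (adjusted p = 0.79). The summed endothelial level was 48.0 to 55.6 at 24 h and 42.6 to 48.5 in C, and at 10 D it was 36.8 to 41.2, below every pool of the other groups. Fibroblast and matrix markers had 3 of 12 values above 0 at 24 h (median -0.31), with -0.78 for Pdgfra and -0.40 for Dcn. Pdpn, podoplanin, a glycoprotein of fibroblasts and lymphatic vessels, had a level of 5.58 at 24 h and 3.35 in C, with a log2 value of 0.74 (adjusted p = 0.25). Myh8, the perinatal myosin heavy chain, had its highest mean at 10 D, 1.34 ± 0.288, beside 0.444 ± 0.0906 in C (SD, n = 3 pools each), a log2 value of 1.59 that did not pass (adjusted p = 0.55). The IgE receptor chain Ms4a2 of mast cells was 0.665 at 24 h and 0.2999 in C, with overlapping pools and a log2 value of 1.352 (adjusted p = 0.57). Ms4a2 was dim in C, at the 9.9th to 30.8th percentile of its arrays. Of the 6 tested mast cell markers 3 had a value above 0 at 24 h, with a median of 0.19.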
